A study of Mus musculus with 4 samples.

Results

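Receptors for serotonin, dopamine, noradrenaline, adenosine and acetylcholine were examined together with the enzymes that make and break down cyclic AMP, in brains of mouse embryos at embryonic day 15. The members were all protein-coding genes with a symbol of the Htr, Drd, Adra, Adrb, Adora, Chrm (muscarinic) or Adcy families, or a Pde symbol ending in the letter a, b, c or d. In all, 56 of 20421 genes in the table met this rule. They comprised 28 receptor genes, one of them a channel subunit, 10 adenylyl cyclases and 18 genes with a Pde symbol.

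The animals labelled FOXM1f/+;Nestin-Cre were set against animals labelled WT, both of strain C57BL/6, and RNA was taken from brain. Nestin-Cre expresses Cre recombinase under Nestin control, mainly in progenitors of neurons and glia, and FOXM1 is a transcription factor of dividing cells. The labels do not say how the FOXM1 allele was built, while the series' title names the human gene. GEO lists 4 samples, 2 per genotype, although the design text speaks of triplicates, and the table holds 1 column of read counts per genotype, named below as the FOXM1 library and the WT library. The sample titles of the WT animals name nestin in one case and foxm1 in the other, and the labels do not say which alleles those animals carried. Whether a column is an embryo or a pool is not stated, and every difference below lies between 2 libraries and has no replicate check.

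The monoamine, adenosine and muscarinic receptors are membrane proteins, most of which signal through G proteins. Receptors coupled to Gs raise cyclic AMP by activating adenylyl cyclases, receptors coupled to Gi lower it, and receptors coupled to Gq act through phospholipase C and calcium. Phosphodiesterases end the signal by hydrolysing cyclic AMP, cyclic GMP or both, and in the forebrain several of these genes mark the projection neurons of the striatum.

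In total, 17856653 reads were counted for FOXM1f/+;Nestin-Cre and 17543705 for WT. Levels are given in CPM, read counts scaled to the total of the library, on which 3 reads correspond to 0.168 CPM in the FOXM1 library and 0.171 CPM in WT. Ratios are FOXM1f/+;Nestin-Cre over WT with a 95% exact counting interval, which leaves out the spread between animals. The libraries also differed in X inactivation RNA, with 9628 reads of Xist, the RNA of the inactive X chromosome, in the FOXM1 library and 5 in WT. What goes with that difference, such as the sex of the embryos, cannot be told apart from genotype in any ratio below. Foxm1 had 1289 reads in the FOXM1 library and 1139 in WT, a ratio of 1.11 (1.03 to 1.21).

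Promoters are shown first for the members at the ends of the range of ratios among those averaging 1 CPM or more. Of these members, Htr2c and Adcy9 had at least 2-fold lower levels in the FOXM1 library, Adra2a had the next lowest ratio and Adcy7 the highest. Each sequence is the 250 bases before a RefSeq start on GRCm38.p6, 5′ to 3′ on the strand of the gene. Capitals mark the cyclic AMP response element half-site TGACG (reverse complement CGTCA), bound by CREB family factors, and the cell cycle homology region TTTGAA (reverse complement TTCAAA), a motif of MuvB and FOXM1 target promoters. Htr2c lies at chrX:146962263-146962512 on the plus strand, Adra2a at chr19:54045009-54045258 plus, Adcy9 at chr16:4420499-4420748 minus and the Adcy7 start at chr8:88282742-88282991 plus.
Htr2c: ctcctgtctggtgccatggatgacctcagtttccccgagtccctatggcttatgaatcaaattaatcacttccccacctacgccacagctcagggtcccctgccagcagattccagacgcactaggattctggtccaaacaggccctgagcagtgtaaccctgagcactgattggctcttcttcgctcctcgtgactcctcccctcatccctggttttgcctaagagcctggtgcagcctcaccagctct
Adcy9: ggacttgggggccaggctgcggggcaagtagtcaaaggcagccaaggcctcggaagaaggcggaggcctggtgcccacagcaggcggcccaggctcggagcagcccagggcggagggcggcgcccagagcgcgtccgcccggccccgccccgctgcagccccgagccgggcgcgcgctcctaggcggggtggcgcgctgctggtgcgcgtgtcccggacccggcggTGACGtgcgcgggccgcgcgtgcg
Adra2a: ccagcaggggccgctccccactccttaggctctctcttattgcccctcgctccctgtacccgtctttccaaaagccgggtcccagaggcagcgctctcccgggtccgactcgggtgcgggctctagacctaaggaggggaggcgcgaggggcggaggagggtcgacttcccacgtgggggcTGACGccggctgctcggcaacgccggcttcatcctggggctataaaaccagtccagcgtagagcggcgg
Adcy7: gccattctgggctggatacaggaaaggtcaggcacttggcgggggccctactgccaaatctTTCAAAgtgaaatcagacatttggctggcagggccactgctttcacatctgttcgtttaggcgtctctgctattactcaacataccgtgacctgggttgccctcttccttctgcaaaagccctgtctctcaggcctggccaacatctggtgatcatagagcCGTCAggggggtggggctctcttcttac

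No match to either motif lay in the Htr2c window, which says only that these letters are not in it. The half-site began 24 bases before the start in Adcy9, 69 before it in Adra2a and, as its reverse complement, 28 before it in Adcy7. In Adcy7 the reverse complement of TTTGAA began 189 bases before the start. Adcy7 has 3 starts in the RefSeq table, of which the one with the half-site is printed.

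Across the members, 44 of 56 genes matched 69 RefSeq promoters. The half-site was in 9 of these 69 windows (13.0%), against 17.8% of all 32851 promoters. The full element TGACGTCA, which contains the half-site on both strands, was in 0 member windows and in 1.55% of all promoters. TTTGAA was in 7 member windows (10.1%), against 16.0% of all, and the forkhead core TAAACA, searched on both strands as the others were, in 11 (15.9%), against 12%. The 11 windows belong to 8 genes, and overlapping Pde8b windows among them hold the same site, which is thus counted more than once. Member promoters had a median GC content of 56.0%, against 52.4% for all promoters.

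Levels of different genes were compared per kilobase of annotated exon, with the mean of both libraries giving the order. The member with the highest level was Pde6d, at 33.8 CPM per kb in the FOXM1 library and 33.0 in WT. Its product is named for the photoreceptor enzyme but is a chaperone of lipid-modified proteins, not a phosphodiesterase. Pde1b, a calcium-activated enzyme of forebrain neurons, followed at 22.8 CPM per kb in the FOXM1 library and 21.1 in WT. Pde9a, a cyclic GMP-specific enzyme, and Pde7a, a cyclic AMP-specific one, came next in the order. The highest receptor was Adora2a, the Gs-coupled adenosine receptor of striatal neurons, at 5.47 CPM per kb in the FOXM1 library and 5.92 in WT. Other receptors stood below 4 CPM per kb in both libraries.

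**Figure D1:**
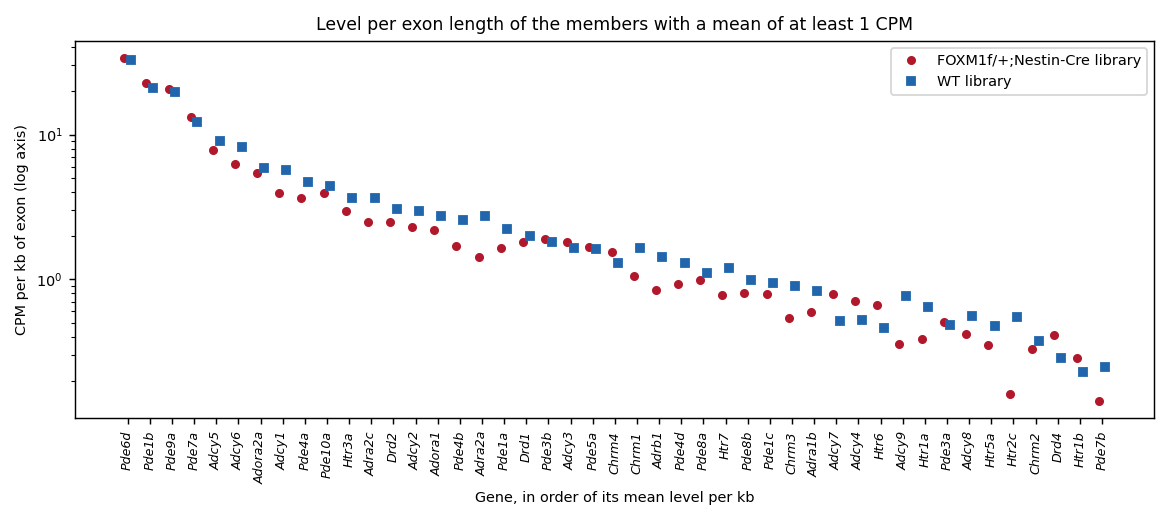
Levels of the 45 members with a mean of at least 1 CPM, in CPM per kb of exon on a log axis, in the FOXM1f/+;Nestin-Cre library (red circles) and the WT library (blue squares), without error bars. Pde6d, Pde1b, Pde9a and Pde7a are the highest in both libraries, and Htr2c shows the widest gap.

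Of the 56 members, 45 averaged 1 CPM or more and were compared. Their levels were lower more often than higher in the FOXM1 library. Intervals lay wholly below 1 for 21 of the 45 (46.7%), where the same held for 19.2% of all 14557 genes compared. Intervals wholly above 1 were found for 3 members (6.67%), against 16.5% of all genes. The remaining 21 members had intervals that span 1. In bulk RNA, fewer cells of a type and less RNA per cell cannot be told apart, which holds for each difference below.

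The median log2 ratio of the 45 members was -0.30, against -0.01 for all genes compared. Among the 24 members between 1 and 10 CPM the median was -0.30, against -0.08 for all genes of that range. Of these, 8 had intervals below 1 and 1 above it, where 15% and 8.01% of all such genes had. Among the 21 members from 10 CPM upward the median was -0.25, against 0.00 for all such genes. Here 13 had intervals below 1 and 2 above it, where 21.1% and 20.2% of all such genes had. At the 2-fold limit, 2 members were lower and none was higher, where 1.83% and 0.522% of all genes were. Both lower members were among the 24 between 1 and 10 CPM, where 246 of 4419 genes were 2-fold lower. From 10 CPM upward no member was 2-fold lower, where 0.197% of genes were, and with no minimum 5 of 56 were, where 9.53% of genes were. At the 1.5-fold limit 9 members (20%) were lower, against 5.23% of all genes, and 1 member was higher, against 2.53%. Between 1 and 10 CPM, 8 of 24 members (33.3%) were 1.5-fold lower, against 15.3% of genes in that range. The 1 higher member was also in that range, where 335 of 4419 genes were higher. From 10 CPM upward 1 of 21 members (4.76%) was 1.5-fold lower, against 0.848% of genes.

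**Figure D2:**
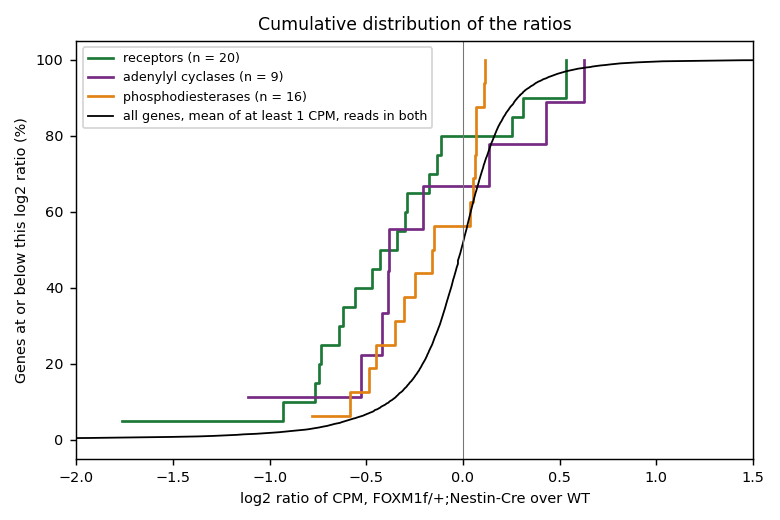
Cumulative share of genes (%) by log2 ratio of CPM, FOXM1f/+;Nestin-Cre over WT. Curves are receptors (20), adenylyl cyclases (9), phosphodiesterase genes (16, Pde6d included) and all genes compared that had reads in both libraries. The receptor and cyclase curves lie left of the black curve over most of their range, with medians of -0.39 and -0.38, and the phosphodiesterase curve reaches 100% at 0.12.

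Receptor genes summed to 97.8 CPM in the FOXM1 library and 131.5 CPM in WT. That is 1746 against 2308 reads, 1.35-fold lower (1.26 to 1.43), and 1.31-fold lower (1.23 to 1.40) without Htr2c. None of the 20 receptor genes compared had an interval above 1, where 16.5% of all genes did and 8.01% of those at 1 to 10 CPM. Intervals lay below 1 for 9 of the receptor genes (45%), where 19.2% and 15% did. Most of the 20 averaged under 10 CPM. The counts of each class and list below stand against the same shares. For genes from 10 CPM upward the shares were 21.1% below 1 and 20.2% above it.

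The Gs-coupled receptors were divided. The beta-adrenergic receptor Adrb1 had 51 reads in the FOXM1 library and 85 in WT, which is 2.86 against 4.84 CPM. It was 1.70-fold lower (1.18 to 2.45). The serotonin receptor Htr7 had 47 reads in the FOXM1 library and 71 in WT and was 1.54-fold lower (1.05 to 2.27). Those 2 were the Gs-coupled genes with intervals below 1, of 5 compared.

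The other Gs-coupled receptors had intervals on both sides of 1. Adora2a had 299 reads in the FOXM1 library and 318 in WT, a ratio of 0.924 (0.786 to 1.09). Drd1, the dopamine receptor of the direct striatal pathway, had 117 reads in the FOXM1 library and 126 in WT, a ratio of 0.912 (0.703 to 1.18). The serotonin receptor Htr6, found on neuronal primary cilia, had 28 reads in the FOXM1 library and 19 in WT. At such counts its ratio of 1.45 was known only to within 0.780 and 2.74.

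Among the 10 Gi-coupled receptor genes compared, Adra2a had the lowest ratio. Adra2a (chromosome 19, 54045182 to 54048982, GRCm38), which inhibits noradrenaline release and neuronal firing, had 124 reads in the FOXM1 library and 232 in WT. That is 6.94 against 13.2 CPM, 1.90-fold lower (1.52 to 2.39). Its relative Adra2c had 152 reads in the FOXM1 library and 220 in WT, 1.47-fold lower (1.19 to 1.82). Summed with the sparse Adra2b, these genes were 1.68-fold lower (1.44 to 1.95).

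The serotonin receptor Htr1a, an autoreceptor of serotonin neurons that cortical neurons also carry, had 31 reads in the FOXM1 library and 51 in WT. It was 1.67-fold lower (1.05 to 2.71). Adora1, the inhibitory adenosine receptor of presynaptic terminals, had 225 reads in the FOXM1 library and 280 in WT, 1.27-fold lower (1.06 to 1.52). Exons of Mybph on the other strand cover 20.1% of its exon length. These made 4 of 10 Gi-coupled receptor genes with intervals below 1.

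The dopamine receptors showed no difference beyond counting error. Drd2, of the indirect striatal pathway, had 114 reads in the FOXM1 library and 137 in WT, a ratio of 0.818 (0.632 to 1.06). Drd4 had 25 reads in the FOXM1 library and 17 in WT. The 3 dopamine receptor genes together had 256 reads in the FOXM1 library and 280 in WT, a ratio of 0.898 (0.755 to 1.07). Of the remaining Gi-coupled genes, Chrm2 and Htr5a had ratios under 1 and Chrm4 and Htr1b ratios over 1, all with intervals that span 1.

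Gq-coupled receptors had the lowest median of the receptor classes, a log2 ratio of -0.69 over 4 genes, all with ratios under 1 and 3 with intervals below 1. Htr2c (chromosome X, 146962513 to 147197277, GRCm38), a serotonin receptor that is abundant in the choroid plexus epithelium, had 27 reads in the FOXM1 library and 90 in WT. That is 1.51 against 5.13 CPM, 3.39-fold lower (2.19 to 5.43). Chrm1, the main muscarinic receptor of the cortex, had 122 reads in the FOXM1 library and 187 in WT and was 1.56-fold lower (1.24 to 1.98).

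Chrm3, a second muscarinic receptor of this class, had 60 reads in the FOXM1 library and 98 in WT, 1.66-fold lower (1.19 to 2.33). The alpha-adrenergic receptor Adra1b had 36 reads in the FOXM1 library and 49 in WT, with an interval that spans 1. Summed without Htr2c, the Gq-coupled genes were still 1.59-fold lower (1.34 to 1.88).

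Markers of the choroid plexus moved with Htr2c. Of 9 compared, 8 had intervals below 1 and 1 spanned it, and 11 of the 12 listed genes summed to 32.6 CPM in the FOXM1 library and 735 CPM in WT. Ttr, the thyroid hormone carrier of the plexus, had 177 reads in the FOXM1 library and 11255 in WT, and Cldn2, a tight junction protein, had 0 against 17. Otx2, a homeobox gene that brain regions outside the plexus also express, had 211 against 223 reads. Htr2c is also on the X chromosome, and the libraries differed in Xist as given above. The part of either in the Htr2c difference was not tested.

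Htr3a, which encodes a subunit of the serotonin-gated cation channel and marks interneurons of the caudal ganglionic eminence, had 111 reads in the FOXM1 library and 134 in WT. Its ratio of 0.814 had an interval from 0.627 to 1.05.

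**Figure D3:**
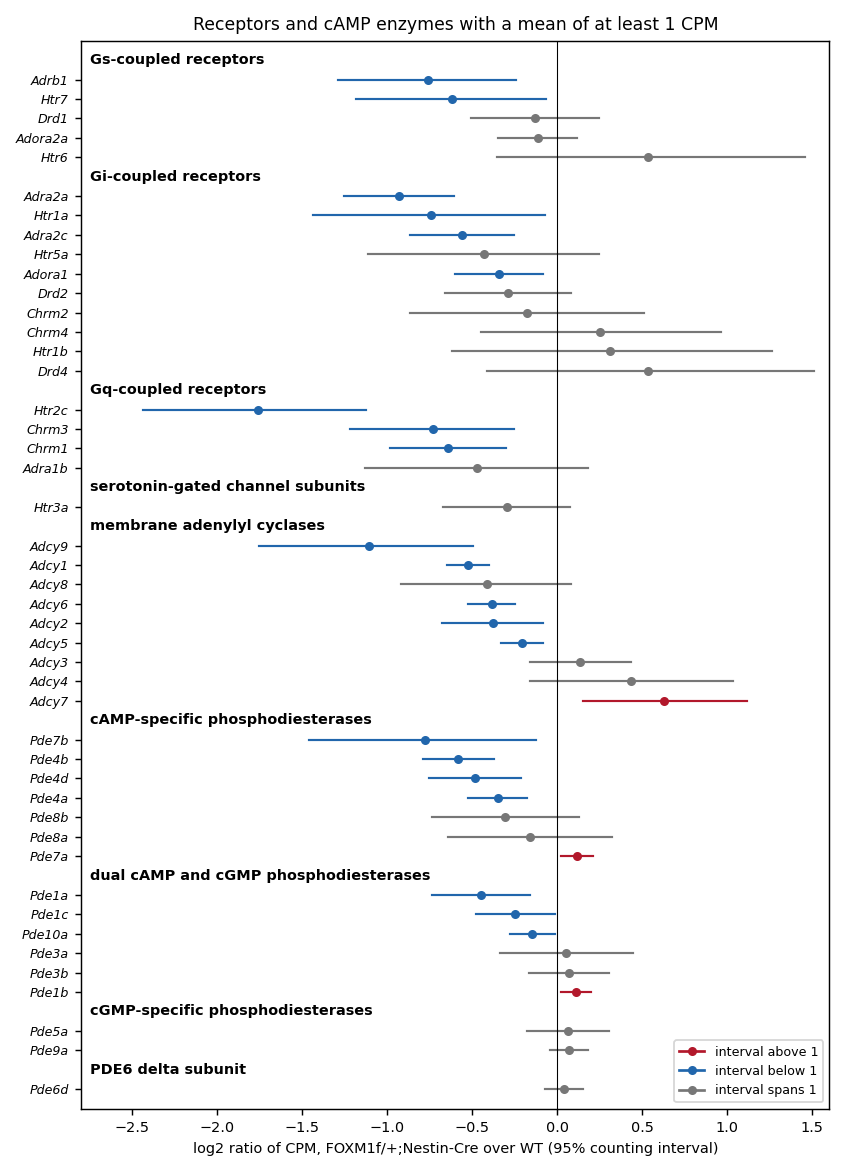
Log2 ratio of CPM, FOXM1f/+;Nestin-Cre over WT, with 95% exact counting intervals, for the 45 members with a mean of at least 1 CPM, grouped by role. Intervals below 1 (blue, 21 genes) occur in every class of receptor coupled to G proteins, and intervals above 1 (red) belong to Adcy7, Pde7a and Pde1b.

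Adenylyl cyclases were lower as a group. The 10 genes had 3263 reads in the FOXM1 library and 4012 in WT, 1.25-fold lower (1.19 to 1.31). Of 9 membrane cyclases compared, 5 had intervals below 1, 1 above and 3 spanning it, with a median log2 ratio of -0.38. Of all genes compared, 19.2% had intervals below 1 and 16.5% above. The 3 with the most reads, Adcy1, Adcy5 and Adcy6, were together 1.29-fold lower (1.23 to 1.36).

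Adcy1 (chromosome 11, 7063489 to 7178506, GRCm38), a cyclase that calcium and calmodulin stimulate in cortical neurons, had 886 reads in the FOXM1 library and 1253 in WT. At 49.6 against 71.4 CPM it was 1.44-fold lower (1.32 to 1.57). Adcy6, which calcium inhibits, had 754 reads in the FOXM1 library and 969 in WT, 1.31-fold lower (1.19 to 1.44). Adcy5, the main cyclase of striatal projection neurons, had 998 reads in the FOXM1 library and 1131 in WT, 1.15-fold lower (1.06 to 1.26).

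Among less abundant cyclases the directions were mixed. Adcy9, a widely expressed cyclase, had 33 reads in the FOXM1 library and 70 in WT and was 2.16-fold lower (1.41 to 3.37). Adcy2 was 1.30-fold lower (1.06 to 1.6), with 172 against 220 reads. Adcy7 (chromosome 8, 88272403 to 88329962, GRCm38), a cyclase that is prominent in blood cells, had 96 reads in the FOXM1 library and 61 in WT. At 5.38 against 3.48 CPM it was 1.55-fold higher (1.11 to 2.17).

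Erythroid markers were higher as well, with 5 of 7 intervals above 1, 2 spanning it and sums of 667 CPM in the FOXM1 library and 318 CPM in WT. Microglial markers had 5 of 8 intervals below 1, 3 spanning it and sums of 36.9 against 48.0 CPM. The part of blood or immune cells in the Adcy7 difference was not tested. Adcy4, Adcy3 and Adcy8 had intervals that span 1. Exons of Adcy3 share 22.1% of their length with those of Cenpo on the other strand, and Cenpo had 160 reads in the FOXM1 library and 155 in WT.

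The composition of the cyclase reads differed accordingly. Adcy1 took 27.2% of them in the FOXM1 library (exact binomial interval 25.6 to 28.7) and 31.2% in WT (29.8 to 32.7). Adcy3 took 6.16% (5.36 to 7.04) in the FOXM1 library and 4.49% (3.87 to 5.17) in the WT library. A share depends on the other cyclases too, and the ratio of Adcy3 itself was 1.10 (0.893 to 1.35). For Adcy5, the share of 30.6% in the FOXM1 library and 28.2% in WT had intervals that overlap, 29.0 to 32.2 and 26.8 to 29.6.

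**Figure D4:**
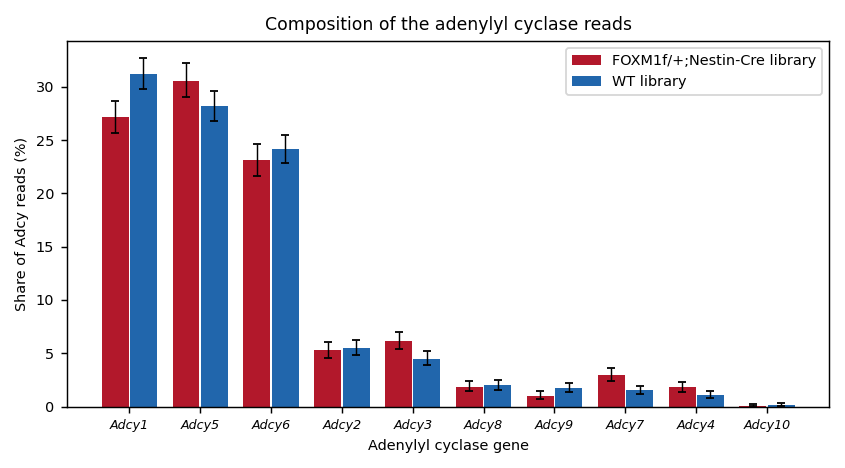
Share of all adenylyl cyclase reads (%) taken by each Adcy gene in the FOXM1f/+;Nestin-Cre library (red, left bars) and the WT library (blue, right bars), with 95% exact binomial intervals. Adcy1 has 27.2% in the FOXM1 library and 31.2% in WT, and Adcy7 has 2.94% and 1.52%.

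Genes with a Pde symbol were nearly level in sum, with 9969 reads in the FOXM1 library and 10015 in WT, a ratio of 0.978 (0.951 to 1.01). Pde6d, whose product is not a phosphodiesterase, gave 1316 of these reads in the FOXM1 library and 1260 in WT. Of the 16 genes compared, Pde6d included, 7 had intervals below 1 (43.8%), 2 above (12.5%) and 7 spanning it. Among all genes compared, 19.2% were below and 16.5% above. Of the families within this sum, Pde4 was lower, as given below. Summed ratios of Pde1 at 1.02 (0.963 to 1.07), Pde7 at 1.07 (0.999 to 1.14) and Pde8 at 0.846 (0.678 to 1.05) had intervals that span 1.

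The Pde4 family, cyclic AMP-specific enzymes and the targets of rolipram, was lower throughout. Pde4b had 323 reads in the FOXM1 library and 475 in WT, 1.5-fold lower (1.30 to 1.73). Pde4a had 502 reads in the FOXM1 library and 629 in WT, 1.28-fold lower (1.13 to 1.44). Pde4d had 198 reads in the FOXM1 library and 272 in WT, 1.40-fold lower (1.16 to 1.69).

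Summed over its 4 genes, the Pde4 family was 1.38-fold lower (1.27 to 1.5), at 57.5 CPM in the FOXM1 library and 79.3 CPM in WT. Shares within the family overlapped between libraries, with Pde4a at 48.9% of Pde4 reads in the FOXM1 library (45.8 to 52.0) and 45.2% in WT (42.5 to 47.8).

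Of the other cyclic AMP-specific enzymes, Pde7a had 1842 reads in the FOXM1 library and 1671 in WT, 1.08-fold higher (1.01 to 1.16). Its relative Pde7b, an enzyme of striatal neurons, had 32 reads in the FOXM1 library and 54 in WT, 1.72-fold lower (1.09 to 2.75). The pair thus lay on opposite sides of 1. Pde8a and Pde8b, high-affinity enzymes, had ratios of 0.894 and 0.809, both with intervals that span 1.

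The Pde1 enzymes, which calcium and calmodulin activate and which act on both cyclic nucleotides, were also split. Pde1b had 2196 reads in the FOXM1 library and 1999 in WT, 1.08-fold higher (1.02 to 1.15). Pde1a had 176 reads in the FOXM1 library and 236 in WT, 1.36-fold lower (1.12 to 1.67). Pde1b therefore took 82.7% of Pde1 reads in the FOXM1 library (81.2 to 84.1) and 77.9% in WT (76.3 to 79.5).

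Pde1c had 283 reads in the FOXM1 library and 330 in WT, 1.19-fold lower (1.01 to 1.40). Pde10a, the dual enzyme of striatal projection neurons, had 908 reads in the FOXM1 library and 988 in WT, 1.11-fold lower (1.01 to 1.21). With TMM or RLE scaling the intervals of these 2 genes reached 1. Pde3a and Pde3b, the enzymes that cyclic GMP inhibits, differed by less than counting error, with ratios of 1.04 and 1.05.

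The cyclic GMP-specific enzymes were near 1. Pde9a had 1304 reads in the FOXM1 library and 1222 in WT, a ratio of 1.05 (0.969 to 1.13). Pde5a, known from smooth muscle, had 296 reads in the FOXM1 library and 278 in WT, a ratio of 1.05 (0.885 to 1.24). Pde6d had 1316 reads in the FOXM1 library and 1260 in WT, a ratio of 1.03 (0.949 to 1.11).

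A mean of at least 1 CPM was not reached by 11 members, among them Pde4c at 0.568 CPM, while Drd4, at 1.18 CPM, was the lowest to pass. Htr2a, a Gq-coupled receptor of cortical neurons, had 1 read in the FOXM1 library and 15 in WT, a ratio of 0.0655 (0.00156 to 0.426). Pde4c had 4 reads in the FOXM1 library and 16 in WT, a ratio of 0.246 (0.0598 to 0.761). The others below this level, such as Adra2b, Adora2b, Htr1d and Pde11a, had at most 9 reads in the FOXM1 library and 11 in WT and intervals that span 1.

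The authors' deposited table marked 12 members as significant. It marked Adcy7 as up, where 3.14% of its genes were, and 11 members as down, where 6.31% were. The members down in the authors' deposited table were Adcy9, Adra2a, Adrb1, Chrm1, Chrm3, Htr1a, Htr2a, Htr2c, Htr7, Pde4c and Pde7b. In the authors' deposited table Adcy1 had the smallest p-value of any member and was not marked. Its fold change there was 0.695, and that of Pde4b, also unmarked, was 0.668. Members marked as down had fold changes of 0.650 or less, and Adcy7 had 1.55. Htr1a and Htr7 were marked with larger adjusted p-values than Adcy1 and Pde4b. The missing mark of Adcy1 thus went with its fold change, not with a large p-value. Unmarked members beyond these fold changes, such as Adra2b at 0.447, had larger p-values than any marked member. The p-values of the authors' deposited table compare 1 column with 1 column.

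Genes that supply the transmitters were mostly indistinguishable. In the list of monoamine synthesis, uptake and breakdown, 1 of 8 genes compared had an interval below 1 and 7 spanned it. The gene below was Slc29a4, a low-affinity monoamine transporter, with 2835 reads in the FOXM1 library and 3297 in WT, 1.18-fold lower (1.13 to 1.25). Tyrosine hydroxylase, Th, had 65 reads in the FOXM1 library and 70 in WT. In the acetylcholine list 1 of 3 was below, the esterase Ache at 1.27-fold lower (1.03 to 1.57), and 2 spanned 1.

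Markers of the cells that make these transmitters were mostly sparse. Of 14 markers of monoaminergic neurons, 7 were analysed and 3 averaged 1 CPM or more, all with intervals that span 1, of which Slc18a2, the vesicular monoamine transporter, had 546 reads in the FOXM1 library and 476 in WT. Below that level Slc6a4, the serotonin transporter, had 10 reads in the FOXM1 library and 1 in WT, a ratio of 9.83 (1.40 to 426). Tph2, the serotonin-making enzyme of neurons, had 5 reads in the FOXM1 library and 3 in WT, and Lmx1b, a transcription factor of these neurons, had 5 against 1. The dopamine transporter Slc6a3 had 1 read in the FOXM1 library and 3 in WT, and these 3 genes had intervals that span 1. The 4 genes compared of the cholinergic list also had intervals that span 1, and Chat, below that level, had 3 reads in each library.

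Downstream of the receptors, G protein alpha subunits had 6 of 10 intervals below 1, 1 above and 3 spanning it, with a median log2 ratio of -0.12 and a range from -1.34 to 0.30. Gnas, whose products include Gs alpha, had 306 reads in the FOXM1 library and 763 in WT, 2.54-fold lower (2.22 to 2.91). These reads were counted for the gene as a whole and do not separate its transcripts. Antisense genes of this imprinted locus, Nespas and Gm20721, cover 22.0% of its exon length, and no source used here gives the strand setting of the counting. Gnal, the related subunit of striatal neurons, had 828 reads in the FOXM1 library and 988 in WT, 1.21-fold lower (1.11 to 1.33). Gnai2, a Gi subunit, was 1.11-fold higher (1.08 to 1.15), with 8086 against 7136 reads.

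Among 21 effectors of cyclic AMP compared, 13 had intervals below 1, 2 above and 6 spanning it. Their log2 ratios ran from -0.57 to 0.21, with a median of -0.19. Prkar1b, a regulatory subunit of protein kinase A in neurons, had 2849 reads in the FOXM1 library and 3490 in WT, 1.25-fold lower (1.19 to 1.31). Its catalytic subunit Prkaca was 1.14-fold lower (1.09 to 1.2) and the regulatory subunit Prkar2b 1.15-fold lower (1.09 to 1.22). In the list of receptor desensitisation, 3 of 5 were below and 2 spanned 1, with Arrb1, a beta-arrestin, 1.23-fold lower (1.15 to 1.30).

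Lists of neural cells differed in direction. Of 16 striatal projection neuron markers compared, 10 had intervals below 1 and 6 spanned it, with log2 ratios from -1.26 to -0.07 and sums of 860 CPM in the FOXM1 library and 953 CPM in WT. Ppp1r1b, the phosphatase inhibitor that dopamine signalling acts on, was 1.13-fold lower (1.03 to 1.23). Markers of maturing neurons had 9 of 10 intervals below 1 and 1 spanning it, with sums of 6709 against 7304 CPM. Markers of apical radial glia had 7 of 10 above and 3 spanning it, with sums of 2455 against 2009 CPM. The part of these cell types in the lower receptor and cyclase levels was not tested.

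Other lists gave smaller sums. Oligodendrocyte precursor markers had 4 of 6 intervals below 1 and 2 spanning it, with sums of 68.6 CPM in the FOXM1 library and 87.9 CPM in WT. Endothelial markers had 3 of 7 below and 4 spanning, with sums of 139 against 156 CPM, and mural and meningeal markers 3 of 8 below, 1 above and 4 spanning, with sums of 101 against 126 CPM. Astroglial markers had 2 of 6 below, 1 above and 3 spanning, with sums of 433 against 440 CPM. Photoreceptor markers summed to 1.62 CPM in the FOXM1 library and 2.28 CPM in WT, with none reaching a mean of 1 CPM. No marker was at 0 in WT except Pde6g of the photoreceptor list, and Cldn2 was the marker at 0 in the FOXM1 library.

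**Figure D5:**
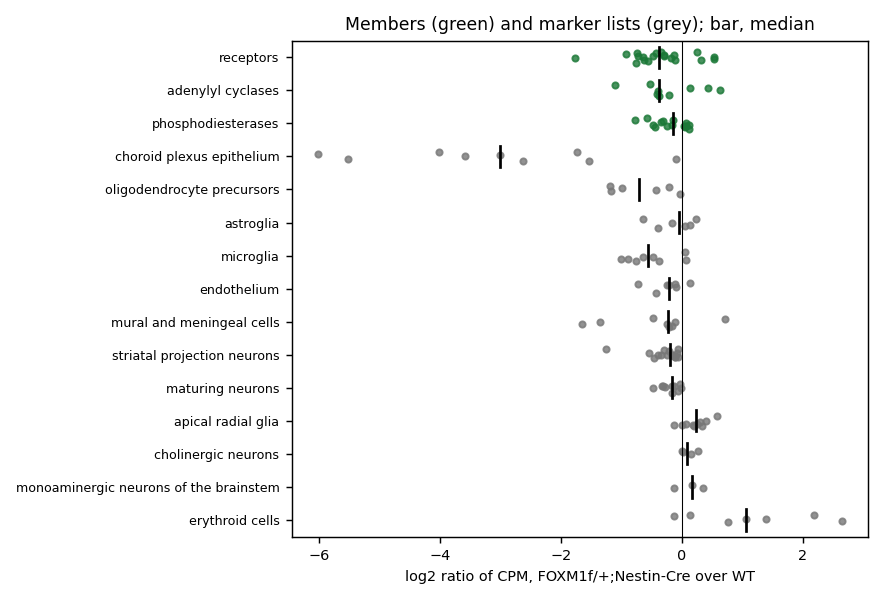
Log2 ratio of CPM, FOXM1f/+;Nestin-Cre over WT, of each gene compared, for the members (green) and the marker lists with genes at a mean of at least 1 CPM (grey), with the median as a bar and vertical jitter. Choroid plexus markers reach -6.02, receptors and cyclases have medians of -0.39 and -0.38, and maturing neuron markers one of -0.16.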

How the data were processed

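RNA of embryonic day 15 brains (2 ug per sample, per the labels' protocols) was sequenced, and the submitters' processing notes name HTSeq 0.6.0, TopHat2 2.0.12, Bowtie2 2.2.3 and the build mm9. Positions in the table match GRCm38 instead, with the start and end of 45 of 56 members identical in GENCODE M21. The sources used here give no annotation, strand or multimapping setting, and exons of 12 members overlap a gene on the other strand. The deposited columns are raw read counts and CPM by the authors (0 reads entered as 0.5), on totals of 17859653 and 17547268 reads for the FOXM1 and WT library. The authors' fold change, log2 fold change and p-values compare these columns.

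The edgeR quasi-likelihood test planned in case of 2 or more count columns per genotype was not run, as there is 1. Ratios carry exact conditional (Clopper-Pearson) 95% intervals of 2 Poisson rates, and counts of members and genes cover those averaging 1 CPM or more unless stated. Intervals cover counting error only, and no source used here mentions molecular identifiers, so reads may not be independent molecules. The calculation was tested on simulated Poisson counts without spread between animals, so that test cannot show how the intervals hold across animals. Exon lengths are unions over GENCODE M21 transcripts, and promoters are from RefSeq. Members, 8 pathway lists, 13 marker lists, tests and motifs were chosen with earlier results of these data known. Every member could be named, and of each list up to 4 genes whose interval excludes 1, by log2 ratio over counting error, or up to 2 of highest mean CPM where none does, beside the defining markers of a cell type. Alternatives were TMM or RLE scaling (edgeR 4.0.16 in R 4.3.3), other expression minimums, a fold of 1.5, and leaving out plexus markers or Htr2c. Python 3.11.15, NumPy 2.4.6, pandas 2.3.3, SciPy 1.17.1 and Matplotlib 3.10.9 were used. One sparse member is not reported by name here.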

Additional observations from a re-analysis of the deposited data

How the results depend on the processing

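Over the 45 members compared, 2 were at least 2-fold lower and 0 at least 2-fold higher, and 21 intervals lay below 1 and 3 above it. Without an expression minimum 5 members were at least 2-fold lower, where 9.53% of all genes were, and from 10 CPM upward it was 0, with 13 intervals below 1 among the 21 members left. At a fold of 1.5, 9 members were lower and 1 was higher. Without Htr2c, an alternative chosen after seeing the data, 1 was at least 2-fold lower. TMM and RLE scaling each left 19 intervals below 1 and gave medians of -0.28 and -0.27, against -0.30. They changed the sign of 0 members and moved the median of all genes to 0.01 and 0.02. No member was in the choroid plexus list, so leaving that list out changed no value. Leaving out replicates was not possible with 1 library per genotype. No paired analysis was possible because the columns carry no sample or replicate number. Depth limits the 24 members between 1 and 10 CPM, 15 of which had intervals that span 1.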

Other observations

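Genes that act beside the receptors and cyclases differed less uniformly. In the list of adenosine metabolism and transport, 3 of 9 genes compared had intervals above 1, none below and 6 spanned it, with sums of 262 CPM in the FOXM1 library and 237 CPM in WT. Ahcy, which releases adenosine from S-adenosylhomocysteine, had 1554 reads in the FOXM1 library and 1241 in WT, 1.23-fold higher (1.14 to 1.33). Adk, the kinase that clears adenosine, had 668 reads in the FOXM1 library and 521 in WT, 1.26-fold higher (1.12 to 1.42). The phosphatase Alpl was 1.59-fold higher (1.28 to 1.97), with 226 against 140 reads.

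RGS proteins, which shorten G protein signals, had 3 of 14 intervals below 1, 2 above and 9 spanning it, with sums of 436 CPM in the FOXM1 library and 435 CPM in WT. Rgs6 had 436 reads in the FOXM1 library and 591 in WT, 1.38-fold lower (1.22 to 1.56), while Rgs8 was 1.22-fold higher (1.11 to 1.33), with 1127 against 911 reads. Guanylyl cyclases had 2 of 5 below, 1 above and 2 spanning 1. The soluble cyclase subunits Gucy1a3 and Gucy1b3, which form the receptor of nitric oxide, were both 1.22-fold lower, with intervals of 1.10 to 1.34 and 1.08 to 1.37. The third, Gucy1a2, was 1.87-fold higher (1.08 to 3.34), with 40 reads in the FOXM1 library and 21 in WT.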
